A study of Mus musculus with 8 samples.

Results

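The macrophage genes are 10 genes whose transcripts are widely used to recognise macrophages, the resident phagocytes of tissues. They were taken by name as the rows of the expression files with the symbols Csf1r, Emr1, Cd14, Mrc1, Cd68, Lyz2, Tyrobp, C1qa, C1qb and C1qc, and were 10 of 23235 symbols. Emr1 is the older symbol of Adgre1, which encodes the F4/80 antigen. RNA was sequenced from sorted spermatocytes of WT and Cnot4-null mice at the LZ stage (leptotene and zygotene) and the PD stage (pachytene and diplotene), with 2 libraries in each of 4 groups and 8 in all. All animals were male C57BL/6 mice, 6 weeks old according to the methods, and spermatocytes were sorted by their Hoechst and propidium iodide fluorescence. The Cnot4-null cells came from Cnot4 fl/fl;Stra8-Cre males. The Stra8 promoter drives Cre in germ cells, so that macrophages and other somatic cells of these mice are not targeted by design. The labels name the genotypes Cnot4-KO and Cnot4-WT and give no allele or transgene for the WT mice. The methods describe Smart-Seq2 amplification from 500 cells per sample, whereas the labels describe Trizol extraction and a TruSeq kit for total RNA, and which of these was used is not known here. The methods call the duplicates biological replicates, but no source used here says whether they came from separate mice, so the p-values measure the spread between these libraries.

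Levels are given as FPKM, counts of sequenced fragments scaled for transcript length and library depth, with replicate 1 before replicate 2. Cnot4 itself had 36.0 and 34.9 FPKM in the WT LZ libraries and 43.2 and 34.6 FPKM in the Cnot4-null LZ libraries. At PD its level was 76.6 and 73.1 FPKM in WT cells against 65.9 and 53.5 FPKM in Cnot4-null cells. The genotypes overlapped at LZ, whereas the PD values of Cnot4-null cells lay under those of WT cells. Because the files hold 1 level for a whole gene, they cannot show whether a floxed exon was lost, and the genotype is taken from the labels and not tested by these levels.

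Testicular macrophages lie outside the seminiferous tubules, in the interstitium beside the Leydig cells and along the tubule wall, while spermatocytes lie inside the tubules. Macrophages depend on signalling through the CSF1 receptor, sense microbial products and dying cells through surface receptors, digest what they engulf in lysosomes, and are a main source of the C1q proteins that start the classical complement pathway.

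Summed over the 10 macrophage genes, the level was 47.9 and 2.22 FPKM in WT LZ, 21.6 and 5.15 FPKM in Cnot4-null LZ, 4.15 and 3.28 FPKM in WT PD, and 49.95 and 167.1 FPKM in Cnot4-null PD. The highest sum was therefore in Cnot4-null PD replicate 2, and WT LZ replicate 1 had nearly the same sum as Cnot4-null PD replicate 1. Above 1 FPKM were 7 and 0 macrophage genes in the WT LZ libraries, 4 and 2 in those of Cnot4-null LZ, 2 and 2 in those of WT PD, and 7 and 9 in those of Cnot4-null PD. In bulk libraries such as these, a difference in the number of macrophages and a difference in the RNA of each macrophage cannot be told apart. After each library's depth was taken into account, the values of 10 of 10 genes were whole multiples of a gene's own step, within 0.05 of a step in every library, and a step stands for 1 fragment or a fixed number of them. Summed over the genes, the WT LZ libraries held 257 and 21 steps, the Cnot4-null LZ libraries 90 and 38, the WT PD libraries 35 and 41, and the Cnot4-null PD libraries 256 and 743. Of the 80 single values, 19 were 0, 21 were of 1 to 5 steps and 40 were above 5 steps. A value of 0 allows up to 3 steps, which was between 0.0959 and 1.22 FPKM depending on gene and library, and this limit covers counting error alone. The depth behind these steps was read from genes of low level among all symbols. Relative to WT LZ replicate 1, it was 1.06 in WT LZ replicate 2, 0.935 and 1.06 in the Cnot4-null LZ libraries, 1.22 and 1.33 in the WT PD libraries, and 1.003 and 0.823 in the Cnot4-null PD libraries.

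**Figure D1:**
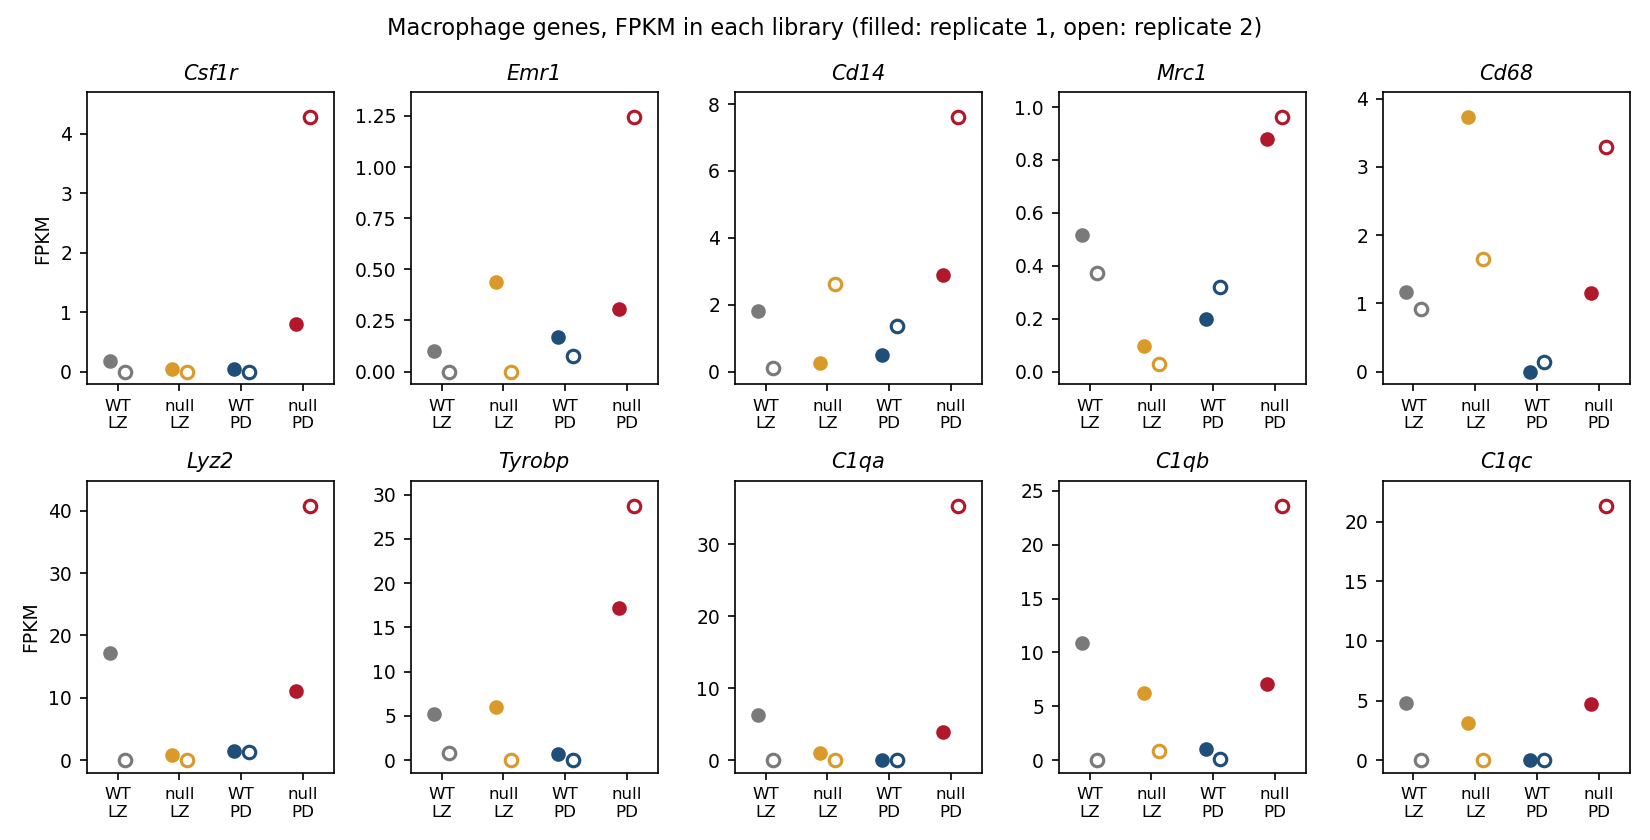
FPKM of each macrophage gene (vertical axes, linear, a separate scale for each gene) in the 8 libraries, by group along the horizontal axis, with filled points for replicate 1 and open points for replicate 2. The highest point is Cnot4-null PD replicate 2 for 9 of 10 genes, with Cd68 as the exception.

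Csf1r and Emr1 encode the surface receptors most used to define macrophages. Csf1r, the receptor for the growth factors CSF1 and IL34, had 0.170 and 0 FPKM in WT LZ, 0.0453 and 0 FPKM in Cnot4-null LZ, 0.0349 and 0 FPKM in WT PD, and 0.803 and 4.27 FPKM in Cnot4-null PD. Its values in Cnot4-null PD were above those of the other 6 libraries, and they stood for 19 and 83 steps, against 0 to 4 steps elsewhere. Emr1, an adhesion receptor of the macrophage surface, had 0.102 and 0 FPKM in WT LZ, 0.438 and 0 FPKM in Cnot4-null LZ, 0.168 and 0.0772 FPKM in WT PD, and 0.306 and 1.24 FPKM in Cnot4-null PD. Emr1 was low throughout, with 10 steps at most, and its Cnot4-null PD and Cnot4-null LZ values overlapped.

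Cd14 and Mrc1 encode receptors that recognise microbial and host ligands. Cd14, a coreceptor for bacterial lipopolysaccharide, had 1.80 and 0.114 FPKM in WT LZ, 0.257 and 2.62 FPKM in Cnot4-null LZ, 0.495 and 1.36 FPKM in WT PD, and 2.88 and 7.60 FPKM in Cnot4-null PD. It was the only macrophage gene with a higher value in replicate 2 than in replicate 1 of Cnot4-null LZ. Mrc1, the mannose receptor, had 0.517 and 0.374 FPKM in WT LZ, 0.0976 and 0.0288 FPKM in Cnot4-null LZ, 0.200 and 0.321 FPKM in WT PD, and 0.880 and 0.961 FPKM in Cnot4-null PD. Mrc1 stayed below 1 FPKM in all libraries, and it differed least between the Cnot4-null PD duplicates, with 29 and 26 steps.

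Cd68 and Lyz2 encode proteins of the lysosome and its contents. Cd68, a glycoprotein of the lysosomal membrane, had 1.16 and 0.915 FPKM in WT LZ, 3.72 and 1.65 FPKM in Cnot4-null LZ, 0 and 0.146 FPKM in WT PD, and 1.16 and 3.29 FPKM in Cnot4-null PD. Its pattern differed from that of the other genes, as both LZ groups were above WT PD and the highest value was in Cnot4-null LZ replicate 1. Lyz2, the lysozyme of macrophages and other myeloid cells, had 17.1 and 0 FPKM in WT LZ, 0.780 and 0 FPKM in Cnot4-null LZ, 1.501 and 1.24 FPKM in WT PD, and 11.1 and 40.8 FPKM in Cnot4-null PD. It had the highest mean of the 10 genes over the 8 libraries, 9.06 FPKM, and its WT LZ duplicates were as far apart as 94 and 0 steps. Lyz2 lies 5474 bases from its close paralog Lyz1 on chromosome 10 of mm9. Since the levels came from unique alignments, reads that match both genes would be left out, and the level of Lyz2 is uncertain to that extent. Lyz1 had 2.49 and 0 FPKM in WT LZ, 0.314 and 0 FPKM in Cnot4-null LZ, 0.483 and 0.332 FPKM in WT PD, and 3.80 and 5.17 FPKM in Cnot4-null PD, below Lyz2 wherever either was above 0.

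Tyrobp encodes DAP12, the adaptor that passes signals from activating receptors such as TREM2 to the kinase SYK. Its level was 5.16 and 0.813 FPKM in WT LZ, 5.97 and 0 FPKM in Cnot4-null LZ, 0.707 and 0 FPKM in WT PD, and 17.1 and 28.7 FPKM in Cnot4-null PD. Both Cnot4-null PD values were above the other 6, and both WT PD values were below both WT LZ values, although WT LZ replicate 2 and WT PD replicate 1 both stood for 2 steps, so that their order came from the library depth alone.

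C1qa, C1qb and C1qc encode the A, B and C chains that assemble together into C1q. The 3 genes are neighbours on the minus strand of chromosome 4, where C1qb lies at chr4:136436044-136442102, C1qc at chr4:136445719-136448980 and C1qa at chr4:136451832-136454718 (mm9, GENCODE vM1). The gaps between them are 3616 and 2851 bases. C1qa had 6.20 and 0 FPKM in WT LZ, 0.947 and 0 FPKM in Cnot4-null LZ, 0 and 0 FPKM in WT PD, and 3.89 and 35.3 FPKM in Cnot4-null PD. In WT PD the 0 values of C1qa allow up to 0.437 and 0.401 FPKM. C1qb had 10.9 and 0 FPKM in WT LZ, 6.21 and 0.859 FPKM in Cnot4-null LZ, 1.05 and 0.137 FPKM in WT PD, and 7.06 and 23.6 FPKM in Cnot4-null PD. It was the chain found in the most libraries, and 1 of its 8 values was 0. C1qc had 4.76 and 0 FPKM in WT LZ, 3.13 and 0 FPKM in Cnot4-null LZ, 0 and 0 FPKM in WT PD, and 4.75 and 21.3 FPKM in Cnot4-null PD. The 3 chains thus shared their order of libraries in part, with WT LZ replicate 1, Cnot4-null LZ replicate 1 and both Cnot4-null PD libraries holding nearly all of their FPKM. Their proportions differed between those libraries. C1qa was 28.4% of the summed C1q level in WT LZ replicate 1, 9.21% in Cnot4-null LZ replicate 1, and 24.8 and 44.0% in Cnot4-null PD, whereas C1qc was between 21.8 and 30.4% in these 4 libraries.

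Promoter sequence was examined because the members varied together across libraries, and because the ETS factor PU.1, a main regulator of macrophage genes, binds sites around the core GAGGAA. RefSeq promoters of 300 bases (GRCm38.p6, 250 bases before to 50 after the start) were given for 5 members, Mrc1, C1qb, C1qc, Lyz2 and Cd68. GAGGAA was found on either strand in 4 of these 5 and in 28.3% of all 32851 promoters, a description with no test. A match is not a bound site. A single upstream match is shown for each of the 4 genes in windows of 30 bases on the gene's own strand, with the match in capitals, which reads TTCCTC where it lies on the opposite strand. The windows are at chr4:136886213-136886242 for C1qb (minus strand, match 30 to 25 bases before the start), chr4:136893090-136893119 for C1qc (minus strand), chr11:69666378-69666407 for Cd68 (minus strand) and chr2:14229367-14229396 for Mrc1 (plus strand).
C1qb: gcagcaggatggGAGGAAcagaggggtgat
C1qc: gacggcagacacTTCCTCattttggcacac
Cd68: tttcttaccaatGAGGAAagggcttcccat
Mrc1: aaaagggacagcTTCCTCtgtcctcctttt
The gene of PU.1 itself, Spi1, listed as Sfpi1, was below 1 FPKM in all 8 libraries, at 0.827 FPKM in WT LZ replicate 1, 0.113 FPKM in WT PD replicate 1, 0.670 FPKM in Cnot4-null PD replicate 2 and 0 in the other 5.

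The genotypes were first compared at PD, where all 10 macrophage genes had both Cnot4-null values above both WT values. Of all 15899 genes tested, 58.2% had this order, so that it was common at this stage. Genes were tested if they had more than 1 FPKM in at least 1 library, which 9 of the 10 did. Mrc1 did not, and Csf1r and Emr1 passed through Cnot4-null PD alone, so that those 2 had to be higher there. In limma's fit of log2(FPKM + 1) over 4 groups, a scale that understates the change of low genes, 5 of the 9 tested macrophage genes rose (Benjamini-Hochberg adjusted p under 0.05). The same call was made for 41.6% of all genes. The median change of the 9 genes was 3.21 on the log2 scale, against 0.66 for all genes tested. The median of all genes depended on the scaling, and was -0.05 after quantile normalization and -0.21 after each library was set to the same median, with medians of 2.36 and 2.15 for the 9 macrophage genes.

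Tyrobp rose by 4.15 (SE 0.94, limma adjusted p = 0.00969), 3.49 above the median gene. C1qa rose by 3.74 (SE 1.12, adjusted p = 0.0271) and C1qc by 3.502 (SE 1.02, adjusted p = 0.0247), 3.07 and 2.84 above the median gene. Csf1r rose by 1.60 (SE 0.47, adjusted p = 0.0247) and Cd68 by 1.51 (SE 0.42, adjusted p = 0.0204), 0.94 and 0.84 above the median gene. Csf1r entered the test through Cnot4-null PD alone, so that its direction was given by the filter. The changes of these 5 genes kept their sign under both scalings, and in each the Cnot4-null values were higher in 2 of 2 libraries. Lyz2, at 3.25 (SE 1.24, adjusted p = 0.0595), and C1qb, at 3.21 (SE 1.20, adjusted p = 0.0556), were as far apart in level but did not pass the test. Cd14 did not pass either, with a change of 1.62 (SE 0.68, adjusted p = 0.0788). Emr1 had a change of 0.61 (SE 0.33, adjusted p = 0.157), 0.05 below the median gene, and it turned to -0.16 after quantile normalization. By size of change, 1.74% of all genes were ahead of Tyrobp, 2.93% ahead of C1qa and 51.7% ahead of Emr1. The calls depended on single libraries, and the number of all genes called changed in these fits as well. Without Cnot4-null PD replicate 2, Csf1r alone was called and the median change was 2.29, while the changes were 0.83 for Csf1r, 1.01 for Cd68, 2.29 for C1qa and 2.52 for C1qc, and without Cnot4-null PD replicate 1 Emr1 was called as well, 6 genes in all. Without WT PD replicate 1 Tyrobp alone was called, and without WT PD replicate 2 none was. With Cnot4-null LZ replicate 1 or replicate 2 left out, C1qc, Cd68 and Tyrobp were called, 3 genes each time, and with WT LZ replicate 1 or replicate 2 left out C1qb and Lyz2 were called as well, 7 genes each time. With the PD libraries fitted alone, C1qa, Cd68 and Csf1r lost their calls and C1qb and Lyz2 gained them. Quantile normalization left Tyrobp alone, where 2982 of all 15899 genes were called higher. With no filter on low values Mrc1 was the 1 macrophage gene called, where 5840 of all 23235 symbols were called higher.

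**Figure D2:**
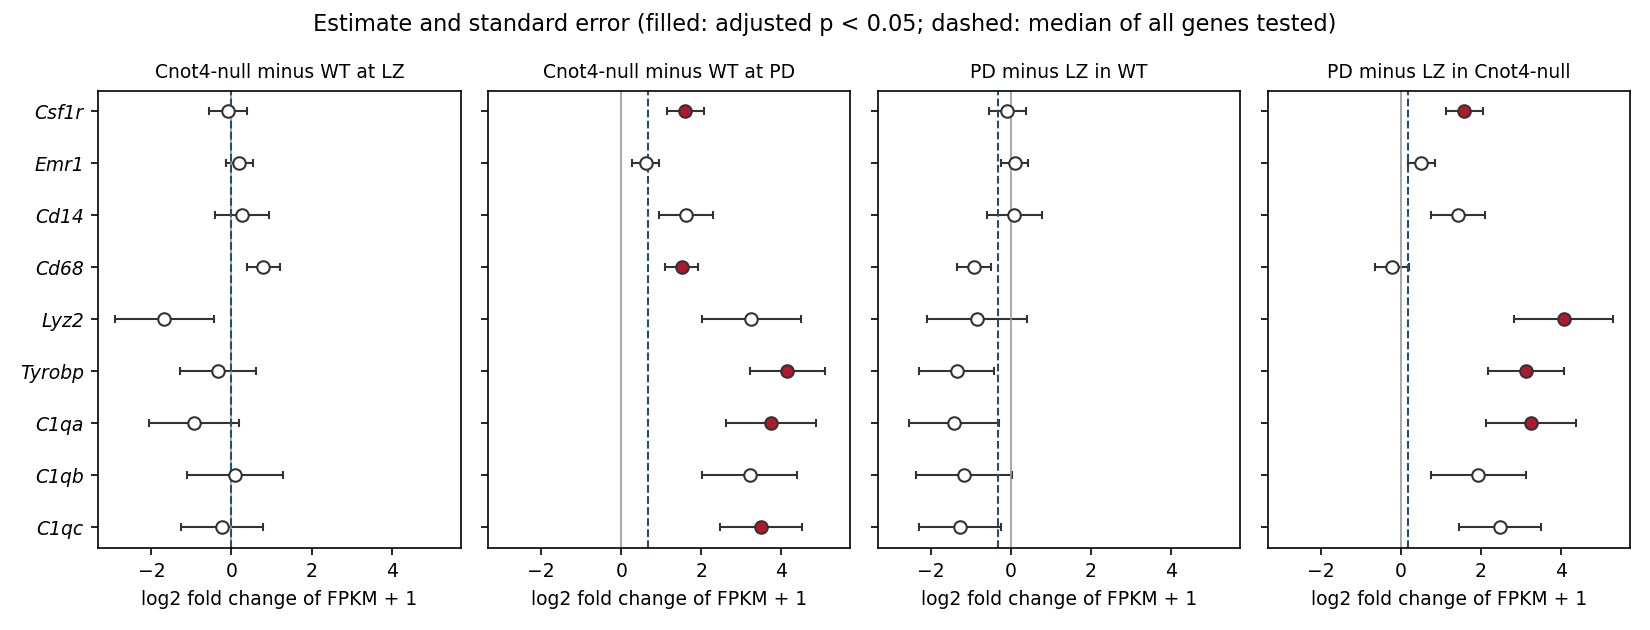
Log2 fold change of FPKM + 1 (horizontal axes) with its standard error for the 9 macrophage genes tested, in limma's fit of all 8 libraries, for the genotype comparisons at LZ and PD and the stage comparisons in WT and Cnot4-null. Filled points had an adjusted p under 0.05, 5 of 9 between genotypes at PD and 4 of 9 between stages in Cnot4-null, and the dashed lines are the medians of all genes tested, from -0.32 to 0.66.

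At LZ, limma called none of the 9 macrophage genes between the genotypes. An unadjusted limma p under 0.05 was found for 0 of the 9, against 1013 of all 15899 genes. Few genes were called at this stage at all, 15 of 15899 or 0.0943%, and 25 without WT LZ replicate 1 or 9 without WT PD replicate 1 or 2. The median change was -0.08 for the 9 genes and 0 for all genes. Cd68 had the largest estimate, 0.80 (SE 0.42, limma adjusted p = 0.856), and both of its Cnot4-null values were above both WT values, an order seen in 18.2% of all genes. Mrc1, not tested, was lower in both Cnot4-null LZ libraries than in both WT LZ libraries, an order seen in 18.0%, and it had 3 and 1 steps there. The values of the other 8 genes overlapped. Lyz2 had the lowest estimate, -1.67 (SE 1.24, adjusted p = 0.943), with 17.1 FPKM in 1 WT library and 0 in the other. The sign of the median rested on single libraries. Without WT LZ replicate 1 the median change was 0.54 and 9 of 9 estimates were positive, and without WT LZ replicate 2 the median was -1.22 and 2 of 9 were positive. It was -0.89 without Cnot4-null LZ replicate 1 and 0.45 without Cnot4-null LZ replicate 2.

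Between the stages in Cnot4-null, 8 of 10 macrophage genes had both PD values above both LZ values, against 40.3% of all genes, and Emr1 and Cd68 overlapped. Limma called 4 of the 9 tested genes higher at PD, against 27.8% of all genes, and Csf1r, 1 of the 4, entered the test through Cnot4-null PD alone, so that its direction was given by the filter. Lyz2 rose by 4.07 (SE 1.24, adjusted p = 0.0315), C1qa by 3.25 (SE 1.12, adjusted p = 0.0485), Tyrobp by 3.14 (SE 0.94, adjusted p = 0.0303) and Csf1r by 1.59 (SE 0.47, adjusted p = 0.028). These changes were 3.89, 3.07, 2.95 and 1.41 above the median gene. C1qa lost its call after quantile normalization (limma adjusted p = 0.0938) and with the same median (adjusted p = 0.0647), and also with no trend or a replicate block. Tyrobp lost its call with the same median (adjusted p = 0.0521) and Csf1r after quantile normalization (adjusted p = 0.084). The median change was 1.94 for the 9 genes and 0.18 for all genes, and for the 9 genes it was 1.14 without Cnot4-null PD replicate 2 and 2.92 without Cnot4-null LZ replicate 1. Cd68 had the 1 negative estimate of the 9, -0.22 (SE 0.42, adjusted p = 0.693), and Emr1, at 0.51 (SE 0.33, adjusted p = 0.239), turned to -0.02 after quantile normalization. Csf1r alone was called without Cnot4-null PD replicate 2, Tyrobp alone without Cnot4-null LZ replicate 1, and none without Cnot4-null LZ replicate 2, WT PD replicate 1 or WT PD replicate 2. Without WT LZ replicate 1 or 2 Csf1r was not called and 3 were, and without Cnot4-null PD replicate 1 C1qa, Csf1r and Emr1 were. In the fits with a library left out, the number of all genes called changed as well. The comparison of stages in Cnot4-null shares the Cnot4-null PD libraries with that of the genotypes at PD, so the values of the 2 comparisons are not independent.

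In WT, 7 of the 9 estimates were negative and 2 were positive, and limma called none of the 9 between PD and LZ in either direction, and none had an unadjusted p under 0.05. Of all genes 57.8% were called, and 9811 of 15899 had an unadjusted limma p under 0.05. The median change was -0.93 for the 9 genes and -0.32 for all genes. Cd68, Tyrobp and Mrc1 had both WT PD values below both WT LZ values, 3 of 10 genes, against 50.2% of all genes. In steps the order held for Cd68 alone, since Tyrobp had 2 in WT LZ replicate 2 and in WT PD replicate 1, and Mrc1 had 13 in WT LZ replicate 2 and 14 in WT PD replicate 2. The estimate of Cd68 was -0.93 (SE 0.42, limma adjusted p = 0.0968) and that of Tyrobp -1.35 (SE 0.94, adjusted p = 0.265), -0.61 and -1.04 relative to the median gene. Leaving out WT LZ replicate 1 moved the median to 0.02. Leaving out WT LZ replicate 2 moved it to -2.24, and Lyz2 was then called lower. With pseudocount 0.1, or with the WT libraries fitted alone, Cd68 was called lower.

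Whether the genotype difference itself changed with stage was tested by the interaction of genotype and stage. Tyrobp passed, with a difference between PD and LZ of 4.49 (SE 1.33, limma adjusted p = 0.0419), 3.85 above the median gene. It was 1 of 9 macrophage genes, against 26.0% of all genes called higher. Of the 9, 5 had an unadjusted limma p under 0.05, as had 6995 of all 15899 genes. The estimates were 4.92 for Lyz2 (SE 1.75, adjusted p = 0.0706), 4.68 for C1qa (SE 1.59, adjusted p = 0.0619) and 3.74 for C1qc (SE 1.45, adjusted p = 0.0895), none past the threshold. The median was 3.12 for the 9 genes and 0.64 for all genes, and for the 9 genes it was 1.57 and 4.91 without WT LZ replicate 1 and 2, and 2.14 without Cnot4-null LZ replicate 2. The estimates of Emr1 and Cd68, 0.42 and 0.71, turned negative after quantile normalization. Tyrobp was not called after either rescaling, with adjusted p = 0.0787 and 0.0559, nor with no filter (adjusted p = 0.139), where Mrc1 was called, nor with pseudocount 0.1 (adjusted p = 0.0671), where Csf1r was. It was called without Cnot4-null LZ replicate 1 and was not called without any 1 of the other 7 libraries, with adjusted p = 0.141 and 0.0551 without WT LZ replicate 1 and 2, 0.0986 without Cnot4-null LZ replicate 2, 0.104 and 0.149 without WT PD replicate 1 and 2, and 0.0839 and 0.147 without Cnot4-null PD replicate 1 and 2. In its place C1qa and Lyz2 were called without WT LZ replicate 2, C1qa and Csf1r without Cnot4-null PD replicate 1, and Csf1r without Cnot4-null PD replicate 2. Over all alternatives its adjusted p ranged from 0.0234 to 0.149.

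The duplicates of a group were compared next. In Cnot4-null PD, all 10 genes were higher in replicate 2 than in replicate 1, by a median ratio of 3.51, from 1.09 for Mrc1 to 9.08 for C1qa. Mrc1 stood for 29 steps in replicate 1 and 26 in replicate 2, so that its order in FPKM came from the library depth alone. Among all genes tested, 46.3% were higher in replicate 2. In WT LZ, all 10 were higher in replicate 1, against 51.2% of all genes tested, and in Cnot4-null LZ 9 of 10 were higher in replicate 1, against 59.8%. In WT PD, 5 of 10 genes were higher in replicate 1, against 51.7%, 3 were higher in replicate 2, and C1qa and C1qc were at 0 in both. The largest differences there were -0.85 for C1qb, -0.77 for Tyrobp and 0.66 for Cd14. For the 9 genes tested, the median difference of replicate 2 minus replicate 1 on the log2 scale was -1.76 for the WT LZ pair, -0.84 for the Cnot4-null LZ pair, -0.05 for the WT PD pair and 1.55 for the Cnot4-null PD pair, while it was between -0.10 and -0.01 for all genes.

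**Figure D3:**
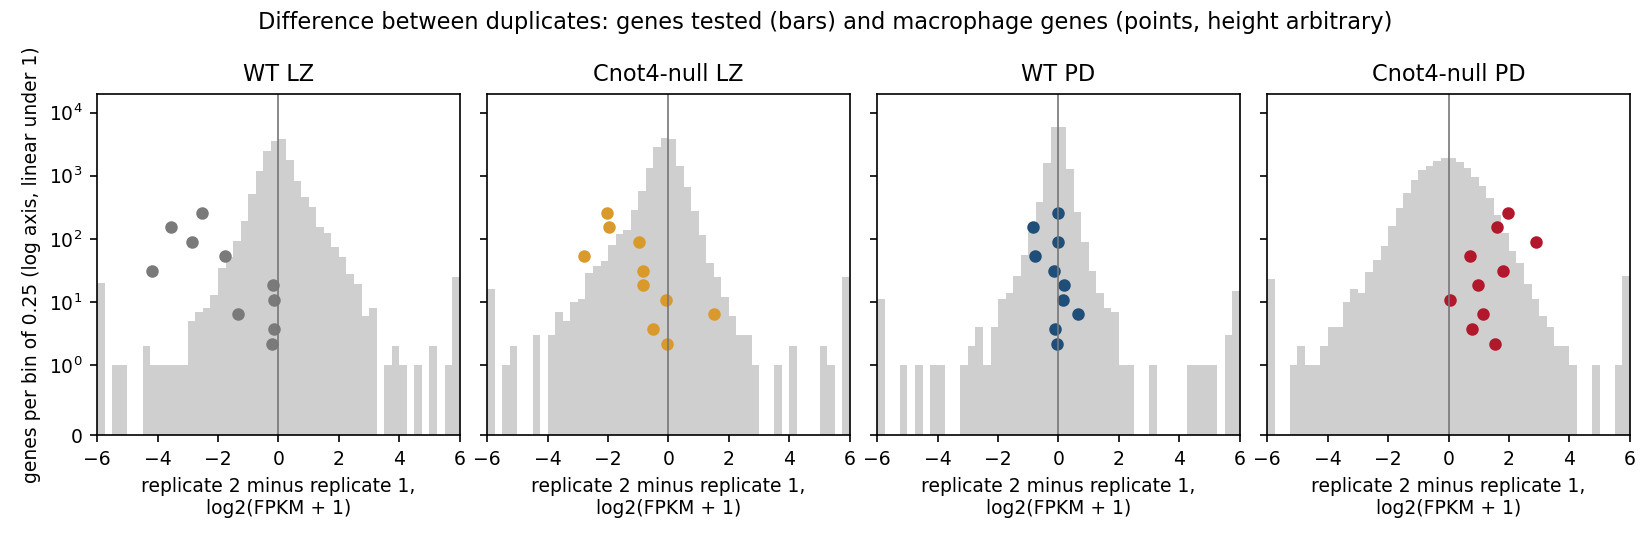
Difference between the duplicates of each group, replicate 2 minus replicate 1 on the log2(FPKM + 1) scale (horizontal axes), with bars for the number of tested genes in each bin (log axis, linear under 1, genes beyond 6 in the end bins) and points for the 10 macrophage genes, set at arbitrary heights from Csf1r at the bottom to C1qc at the top. The points lie left of 0 in WT LZ and right of 0 in Cnot4-null PD, where the median difference of the 9 genes tested was 1.55.

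The other genes of the same cells and pathways were described from lists. Of 22 further macrophage genes, 15 were tested, and at PD 6 were called higher and 1 lower in Cnot4-null, against 41.6% and 11.5% of all genes. Their median change was 1.16, against 0.66 for all genes, and this order rested on 1 library. Without Cnot4-null PD replicate 2 the median was 0.54, against 0.57 for all genes, and without replicate 1 it was 1.92. After quantile normalization 2982 of all 15899 genes were called higher and 3977 lower, and with the same median 3724 and 6376. Aif1, a calcium-binding protein of activated macrophages, had 21.9 and 13.1 FPKM in WT PD and 352 and 128 FPKM in Cnot4-null PD and rose by 3.57 (SE 0.67, limma adjusted p = 0.00469). Unlike the 10 genes it was higher in replicate 1 of Cnot4-null PD, and it had 13.4 to 51.1 FPKM at LZ. Fcer1g, the Fc receptor gamma chain, had 0.564 and 0.775 FPKM in WT PD and 7.86 and 21.2 FPKM in Cnot4-null PD and rose by 3.07 (SE 0.80, adjusted p = 0.0162). Pf4, a chemokine, rose by 2.54 (SE 0.82, adjusted p = 0.0354) and Irf8, a transcription factor of the myeloid lineage, by 2.91 (SE 0.47, adjusted p = 0.00256). Fcgr3, a receptor for immunoglobulin G, fell by 2.30 (adjusted p = 0.00481), from 79.7 and 79.4 FPKM in WT PD to 20.8 and 11.3 FPKM. At LZ it had at most 1.35 FPKM, so that it was highest in WT PD, where the 10 macrophage genes were low. Of the 22 genes, 3 were above 1 FPKM in both libraries of a WT group, Aif1, Cd163 and Fcgr3. After quantile normalization 2 genes of the list were called higher and 1 lower, and 2 were called higher without WT PD replicate 1 or 2. Of the 15 genes tested, 4 were above 1 FPKM in Cnot4-null PD alone.

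Among the ligands of CSF1R, Csf1 had 0.0415 and 0.0553 FPKM in WT PD and 4.03 and 9.28 FPKM in Cnot4-null PD and rose by 2.78 (SE 0.40, limma adjusted p = 0.00156). Csf1 was above 1 FPKM in Cnot4-null PD alone, with at most 0.620 FPKM elsewhere, so that it was tested because of the group where it is high. The other ligand, Il34, had 1.18 and 0.387 FPKM in WT PD and 0.409 and 0.125 FPKM in Cnot4-null PD, with a change of -0.47 (adjusted p = 0.226), and it was called lower after both rescalings. Of 5 receptors and kinases that act with TYROBP, 2 were tested and limma called 0 of them. Of all genes, 41.6% were called higher and 11.5% lower. The 2 tested were Siglech (0.85, limma adjusted p = 0.126) and Trem2 (0.96, adjusted p = 0.172). Trem2 was listed at 2.78 FPKM in Cnot4-null PD replicate 2 and at 0 in the other 7 libraries. Both were above 1 FPKM in Cnot4-null PD alone, and 1 of the 2 was called higher without Cnot4-null PD replicate 1 or 2.

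Of 17 other complement genes, 12 were tested and 8 were called higher and 0 lower at PD, with a median change of 2.14, against 41.6% and 11.5% of all genes and their median of 0.66. Serping1, the inhibitor of the C1 complex, had 4.75 and 0.653 FPKM in WT PD and 82.8 and 125.8 FPKM in Cnot4-null PD and rose by 5.06 (SE 0.59, limma adjusted p = 0.000657). C1s, a protease of that complex, had 0.237 and 0 FPKM in WT PD and 13.3 and 22.0 FPKM in Cnot4-null PD and rose by 4.03 (SE 0.35, adjusted p = 0.000252). C2 rose by 3.52 (adjusted p = 0.00058) and the surface inhibitor Cd59a by 3.04 (adjusted p = 0.000586), while Cd55 was not called at -0.16 (adjusted p = 0.776). Of the 12 genes tested 5 were above 1 FPKM in Cnot4-null PD alone, C1s and C2 among them. After quantile normalization 7 were called higher and 2 lower, and with the same median 8 higher and 3 lower, with medians of 1.16 and 1.63. These genes are also made by cells other than macrophages. Summed over the list, the level was 13.5 and 11.04 FPKM in WT LZ, 14.6 and 13.0 FPKM in Cnot4-null LZ, 24.7 and 20.7 FPKM in WT PD, and 171 and 230.3 FPKM in Cnot4-null PD, so that the peak of the macrophage genes in WT LZ replicate 1 was not matched.

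Of 7 genes of MHC class II presentation, 6 were tested and 5 were called higher and 1 lower at PD, against 41.6% and 11.5% of all genes. Cd74, the invariant chain, had 0.126 and 0 FPKM in WT PD and 16.7 and 76.7 FPKM in Cnot4-null PD and rose by 5.13 (SE 1.16, limma adjusted p = 0.00971). H2-Aa, H2-Eb1 and H2-Ab1, which encode class II chains, rose by 5.46, 4.12 and 2.75 (adjusted p = 0.0096, 0.0021 and 0.0145). H2-DMb1, which helps to load peptides, fell by 1.45 (adjusted p = 0.0129). The 5 higher calls fell to 3 after quantile normalization and to 4 with the same median, and to 2 without Cnot4-null PD replicate 2 or WT PD replicate 1 and 1 without WT PD replicate 2, where the lower call was lost as well. Without Cnot4-null PD replicate 1, 4 were called higher. Of 8 genes of leukocytes in general, 7 were tested and 5 were called higher and 1 lower, against the same shares. Cd52 had 1.28 and 1.57 FPKM in WT PD and 50.3 and 61.3 FPKM in Cnot4-null PD and rose by 4.54 (SE 0.28, adjusted p = 0.000114), Coro1a rose by 3.27 (adjusted p = 0.00161), Laptm5 by 3.01 (adjusted p = 0.00676) and Rac2 by 1.09 (adjusted p = 0.00976), whereas Vav1 fell by 1.45 (adjusted p = 0.0278). After quantile normalization 3 were called higher and 1 lower, against 2982 and 3977 of all 15899 genes. With the same median 4 were called higher and 1 lower, against 3724 and 6376 of all genes. The change of Rac2 turned negative after quantile normalization. Of the 7 genes tested 3 were above 1 FPKM in Cnot4-null PD alone, Laptm5 among them. Higher calls fell to 3 without WT PD replicate 1 or 2, were 6 without Cnot4-null PD replicate 1, and the lower call was lost without either WT PD library, either Cnot4-null LZ library or Cnot4-null PD replicate 2.

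Markers of other blood cells were set beside these. Of 6 T cell genes, 5 were tested and 1 was called higher and 0 lower, against 41.6% and 11.5% of all genes, with 1 higher and 2 lower after either rescaling (of all 15899 genes 2982 higher and 3977 lower after quantile normalization, and 3724 and 6376 with the same median), 3 higher without Cnot4-null PD replicate 1 and 2 without Cnot4-null PD replicate 2. Their median change of 0.57 was 0.17 without Cnot4-null PD replicate 2 and turned to -0.27 after quantile normalization. The most abundant, Cd3d, had 6.71 and 5.73 FPKM in WT PD and 6.34 and 5.04 FPKM in Cnot4-null PD and was not called (-0.11, limma adjusted p = 0.736). The gene called was Cd3g, at 0 and 0.716 FPKM in WT PD and 8.71 and 5.77 FPKM in Cnot4-null PD, with a change of 2.63 (SE 0.36, limma adjusted p = 0.00123). It was above 1 FPKM in Cnot4-null PD alone, as was Cd8a, which was not called. The summed T cell level was 4.50 and 7.55 FPKM in WT LZ, 6.14 and 9.39 FPKM in Cnot4-null LZ, 9.46 and 8.39 FPKM in WT PD and 17.5 and 18.3 FPKM in Cnot4-null PD. It was above the sum of the macrophage genes in 4 of the 8 libraries, WT LZ replicate 2, Cnot4-null LZ replicate 2 and both of WT PD. Neutrophil genes summed to at most 1.65 FPKM, Camp was tested and not called (-0.78, limma adjusted p = 0.254), and S100a8, S100a9 and Elane were listed at 0 in all libraries. No mast cell or erythroid gene passed the filter, the most abundant were Cpa3 and Alas2 with sums for their lists of at most 0.282 and 0.936 FPKM, and the 4 hemoglobin genes were listed at 0 in all 8 libraries.

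Markers of other cell types differed between the same libraries as the macrophage genes, and their part in the result was not tested. At PD, 41.6% of all genes were called higher and 11.5% lower in Cnot4-null. All 8 Leydig cell genes were called higher in Cnot4-null PD, with a summed level of 17.2 and 9.89 FPKM in WT LZ, 10.8 and 19.0 FPKM in Cnot4-null LZ, 116.5 and 7.07 FPKM in WT PD, and 10080 and 22310 FPKM in Cnot4-null PD. The most abundant of them was Insl3, a hormone of Leydig cells, with 9669 and 21608 FPKM in Cnot4-null PD. All 5 genes of the contractile peritubular myoid cells were called higher, with sums of 3.89 and 2.39 FPKM in WT PD and 63.9 and 293 FPKM in Cnot4-null PD, most of it from Acta2, and 3 were called without WT PD replicate 1 or 2. Above 1 FPKM in Cnot4-null PD alone were 4 of the 8 Leydig cell and 3 of the 5 myoid genes. Of 7 endothelial genes, 2 were tested, both above 1 FPKM in Cnot4-null PD alone, and Cdh5 was called higher, with 0 called without WT PD replicate 1 or 2 or after quantile normalization and 2 without Cnot4-null PD replicate 1. The endothelial sum was at most 7.82 FPKM. Of 9 Sertoli cell genes, 7 were tested and 3 were called higher and 1 lower, close to the shares of all genes, and Clu was the most abundant. Gata4, 1 of the 3 called higher, was above 1 FPKM in Cnot4-null PD alone, so that its direction was given by the filter. Their median change of 0.33 was below the 0.66 of all genes, but it was 0.73 against 0.57 without Cnot4-null PD replicate 2, -0.41 after quantile normalization and -0.01 with the same median. Their sums were 159.5 and 144.7 FPKM in WT LZ, 15.05 and 18.7 FPKM in Cnot4-null LZ, 19.6 and 55.6 FPKM in WT PD, and 119 and 210.1 FPKM in Cnot4-null PD. Higher calls were 2 without WT PD replicate 1, where the lower call was lost, and 1 without WT PD replicate 2 or after quantile normalization. Spermatid genes were all called higher, 5 of 5, with sums of 1825 and 1493 FPKM in WT LZ, 4025 and 701 FPKM in Cnot4-null LZ, 397 and 248 FPKM in WT PD, and 15670 and 7045 FPKM in Cnot4-null PD, where Prm1 was highest, and 4 of 5 were called without Cnot4-null PD replicate 1 or WT PD replicate 2.

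Germ cell markers were set against the stage labels. Pachytene genes, led by Ldhc, summed to 264 and 369 FPKM in WT LZ, 278 and 124 FPKM in Cnot4-null LZ, 12450 and 11560 FPKM in WT PD, and 5628 and 1967 FPKM in Cnot4-null PD, and none of the 9 was at 0 in all libraries. Of these 9 genes limma called 4 lower and 0 higher in Cnot4-null PD, against 11.5% and 41.6% of all genes. The lower calls were 9 with the same median and 3 after quantile normalization, where 6376 and 3977 of all 15899 genes were called lower, 8 without Cnot4-null PD replicate 1, 2 without Cnot4-null PD replicate 2 or either WT PD library, and 3 without either WT LZ library. Of 8 leptotene and zygotene genes, 4 were called higher and 3 lower in Cnot4-null PD, against 41.6% and 11.5% of all genes, and Sycp3 was the most abundant. The lower calls were 0 without Cnot4-null PD replicate 2 or either WT PD library, with 3 higher, and 2 without either WT LZ library. Their sums were 1692 and 1970.0 FPKM in WT LZ, 3568 and 2026 FPKM in Cnot4-null LZ, 1235 and 1286 FPKM in WT PD, and 1031 and 646 FPKM in Cnot4-null PD. Sycp3 alone gave 785 and 799 FPKM of the WT PD sums. Between the stages in WT, 5 of the 8 were called lower at PD and 1 higher, against 36.2% and 21.6% of all genes. Of those 5, Stra8, Dmc1, Prdm9 and Rec8 were the 4 called higher in Cnot4-null PD, and Sycp1 was not called. Stra8 had 8.70 and 6.47 FPKM in WT PD and 228 and 149 FPKM in Cnot4-null PD. Spo11, Hormad1 and Sycp3, the 3 called lower, had WT stage estimates of 2.69, 0.47 and 0.05. Within Cnot4-null PD, replicate 2 was higher than replicate 1 in 10 of 10 macrophage genes, 7 of 8 Leydig cell genes and 5 of 5 myoid genes, against 46.3% of all genes tested. Other lists were mixed. Of the 22 further macrophage genes 13 were higher and 7 lower in replicate 2, with sums of 402 and 212.5 FPKM, and the counts were 10 and 5 for the complement, 4 and 3 for the MHC class II, 6 and 2 for the leukocyte and 4 and 4 for the Sertoli cell genes. Replicate 2 was lower in 9 of 9 pachytene and 5 of 5 spermatid genes. The median ratio of replicate 2 to replicate 1, for genes above 1 FPKM in both, was 3.34 for 7 macrophage genes, 1.93 for the Leydig cell, 4.87 for the myoid, 0.413 for the pachytene and 0.499 for the spermatid genes. At LZ the order differed. WT LZ replicate 1, with 47.9 FPKM of macrophage genes, had 17.2 FPKM of Leydig cell genes and 4.09 FPKM of myoid genes, whereas Cnot4-null PD replicate 1, with 49.95 FPKM of macrophage genes, had 10080 and 63.9 FPKM.

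**Figure D4:**
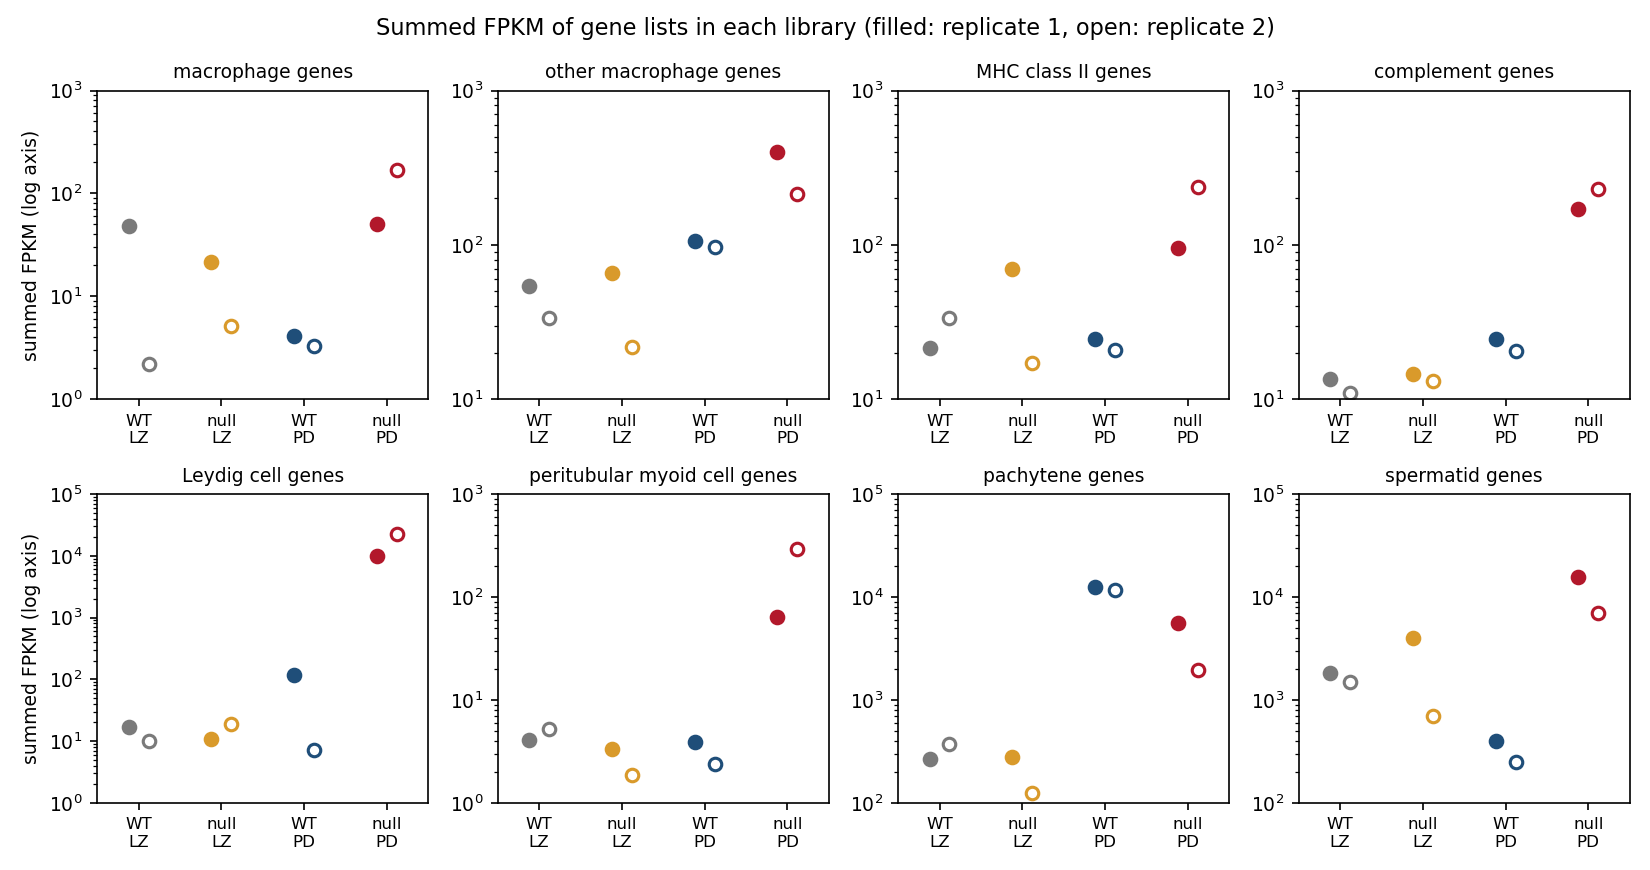
Summed FPKM (vertical axes, log scale) of 8 gene lists in the 8 libraries, by group along the horizontal axis, with filled points for replicate 1 and open points for replicate 2. Macrophage genes reach 47.9 FPKM in WT LZ replicate 1, where Leydig cell genes sum to 17.2 FPKM, and both lists are highest in Cnot4-null PD replicate 2.

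The members varied together across the 8 libraries. The Pearson correlation of a gene's log2(FPKM + 1) with the mean of the other tested macrophage genes, each standardized, was 0.977 for C1qc, 0.969 for C1qa, 0.923 for C1qb, 0.908 for Tyrobp, 0.892 for Csf1r, 0.861 for Emr1, 0.855 for Lyz2, 0.707 for Cd14 and 0.582 for Cd68. These are descriptions over 8 libraries that share 4 groups. Among 9344 other genes with a mean of at least 5 FPKM, the 10 most like the mean of the macrophage genes were Pbxip1, Cd74, Fcer1g, 1500009L16Rik, Mylk, Zbed4, Klf2, Ivd, Ifi27l2a and Zfp36, with correlations from 0.930 to 0.953. A correlation of 0.9 or more was found for 36 genes, or 0.385%. Cd74 and Fcer1g were already among the immune lists. Cd74 had 1.98 and 0 FPKM in WT LZ and 9.79 and 0 FPKM in Cnot4-null LZ, so that it was higher in replicate 1 of both pairs, but higher in Cnot4-null LZ replicate 1 than in WT LZ replicate 1, unlike the sum of the macrophage genes. Klf2, a transcription factor, had 8.88 and 1.37 FPKM in WT LZ, 3.82 and 4.66 FPKM in Cnot4-null LZ, 0.636 and 0.291 FPKM in WT PD, and 11.4 and 35.4 FPKM in Cnot4-null PD. Pbxip1, with the highest correlation, was above 5 FPKM in WT LZ replicate 1 and both Cnot4-null PD libraries, and had 1.87 to 4.09 FPKM in the other 5 libraries.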

How the data were processed

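Reads had been cut by the authors to 50 bases and aligned to mm9 with TopHat2 2.1.1, and the deposited FPKM, one value per gene and library, came from unique alignments through Cufflinks 2.2.1 with UCSC gene models. A scaling between libraries is not stated. Groups and replicate numbers came from the labels.

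Genes were kept if above 1 FPKM in 1 library or more, 15899 of 23235 (68.4%). On log2(FPKM + 1) of the 8 libraries, a model of 4 groups with 4 residual degrees of freedom was fitted (R 4.3.3; limma 3.58.1 with lmFit, contrasts.fit and a trended eBayes). Tests were 2-sided, Benjamini-Hochberg adjustment ran over all genes kept in each comparison, and an adjusted p under 0.05 is a call. The procedure was tested on simulated data. P-values measure the spread of the duplicates. Depth was read from the FPKM of single fragments, and values of 0 were given a limit of 3 steps. Tables and plots used Python 3.11.15, numpy 2.4.6, pandas 2.3.3 and matplotlib 3.10.9. Gene positions are from GENCODE vM1 and promoters from RefSeq.

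The members and lists were chosen with earlier results of these data known. Named were all members, up to 5 genes of highest mean FPKM of each immune list, the most abundant gene of every other list, and the 10 most like genes. Cd163, Cd3g, Trem2, Lyz1, Sfpi1, Gata4, the leptotene and zygotene genes and the genes at 0 were named after their values were seen. The result of 1 list is not reported here. The alternatives were other filters, pseudocounts and scalings, no trend, fewer groups, a replicate block and each library left out in turn.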

Additional observations from a re-analysis of the deposited data

Results flagged for a closer look

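Tyrobp was the 1 of 9 macrophage genes tested whose difference between the genotypes was called as dependent on the stage, against 26.0% of all genes called higher in the same test. The interaction of genotype and stage was 4.49 on the log2(FPKM + 1) scale (limma adjusted p = 0.0419, from 0.0234 to 0.149 over the alternatives), and the estimates of Lyz2 and C1qa, 4.92 and 4.68, were larger but not called. Tyrobp was not called after either rescaling, with no filter or with pseudocount 0.1. When libraries were left out in turn, it was called without Cnot4-null LZ replicate 1 and not called without any 1 of the other 7.

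Mrc1 stood out because the duplicates of the genotypes did not overlap at either stage and lay in opposite orders. The order at PD was seen in 58.2% of all genes tested and that at LZ in 18.0%, and the Cnot4-null LZ values stood for 3 and 1 steps (the smallest unit of a gene's values at a given depth), no more than the 3 steps that a value of 0 allows. By their means of log2(FPKM + 1), 6 of the 10 macrophage genes were lower in Cnot4-null at LZ and higher at PD. Besides Mrc1 these were Csf1r, Lyz2, Tyrobp, C1qa and C1qc, and those 5 overlapped at LZ. How many of all genes had this pattern of means was not counted. The median change of all genes tested was 0 at LZ and 0.66 at PD, and Csf1r passed the filter through Cnot4-null PD alone. For Mrc1, the Cnot4-null libraries had 0.0976 and 0.0288 FPKM against 0.517 and 0.374 FPKM in WT at LZ. At PD they had 0.880 and 0.961 FPKM against 0.200 and 0.321 FPKM in WT. The difference between these differences was 1.05 on the log2(FPKM + 1) scale. It was not tested among the genes kept, since Mrc1 stayed below 1 FPKM, and with no filter on low values limma called it, as it did the difference at PD, but not the difference at LZ. In that setting 2975 of all 23235 symbols were called higher in the interaction and 5840 at PD.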

How the results depend on the processing

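Macrophage genes called with the chosen settings kept their direction under the alternatives in that comparison, but the counts of genes called depended on the processing. Between genotypes at PD, where 8449 genes and 5 macrophage genes were called, a mean of at least 5 FPKM gave 5219 and 2 from fewer genes tested, no filter gave 1 macrophage gene, quantile normalization 1 and the groups compared alone 4, of which C1qb and Lyz2 were new. Leaving out a library gave 4057 to 9956 genes and 0 to 7 macrophage genes. At LZ, where 15 genes and 0 macrophage genes were called by limma, no filter gave 31 genes, the groups compared alone 4, and leaving out a library 9 to 25. Between stages in Cnot4-null, with 7316 genes and 4 macrophage genes, macrophage genes numbered 1 with no filter, 2 at a mean of at least 5 FPKM, 1 with pseudocount 0.1, 2 after quantile normalization and 2 with the same median. The groups compared alone gave 3955 and 1 there, and leaving out a library 4644 to 8333 and 0 to 3. Between stages in WT, with 0 macrophage genes, pseudocount 0.1 gave 1, the groups compared alone 1, and leaving out a library 0 to 1. In the interaction, with 4770 genes and 1 macrophage gene, the same median gave 7306 and 0, quantile normalization 0 macrophage genes, no filter 1 (Mrc1 in place of Tyrobp), pseudocount 0.1 also 1 (Csf1r in place of Tyrobp), and leaving out a library 1656 to 7929 and 0 to 2. Apart from the settings with fewer genes or libraries, the cause was not tested. Where a library was left out, the lone sample of its group was assumed to vary like the other groups.

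With the replicate number as a replicate block, 6 macrophage genes were called between genotypes at PD, 3 between stages in Cnot4-null and 1 in the interaction. Groups share the replicate numbers, but the differences of replicate 1 and 2 correlated between groups over 15899 genes by -0.0651 to 0.194, so the block rests on the number alone.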
